A study of Mus musculus with 32 samples.

Results

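Adult oligodendrocyte progenitor cell (OPC) cultures that had received the solvent dimethyl sulfoxide (DMSO) were compared with adult cultures that had received no addition. The comparison uses 6 of the 32 libraries of the series, 4 adult DMSO libraries (letters A, B, C and D in the labels) and the 2 untreated adult libraries (letters C and D). The 6 libraries were chosen by their labels, with earlier results of these data known. Both groups came from wild-type C57BL/6 mice at postnatal day 60, whose O4+ cells were isolated from the cortex and grown on poly-D-lysine in SATO medium with forskolin, PDGF-AA and bFGF. DMSO was given at 0.02% for 48 h. The labels do not make clear whether that time also applies to the untreated cultures, so an effect of DMSO and an effect of time in culture cannot be told apart. They also do not say which letters come from separate animals, so a p-value here cannot be read as speaking for animals. The spread behind it was estimated over all 32 libraries, or over 26 in a second fit described below. It was not taken from the compared libraries alone. The other libraries used for reference are adult cultures given 5 µM garcinol with 0.2 µM NU9056 (KATi, a pair of lysine acetyltransferase inhibitors, 4 libraries) or 5 µM A196 (SUV420i, an H4K20 methyltransferase inhibitor, 4 libraries) for 48 h, and neonatal cultures from postnatal day 5.

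OPCs divide in the brain throughout life and differentiate into oligodendrocytes, which form myelin. DMSO is a common solvent for small molecules, and cultures given the solvent alone serve as the control for an inhibitor. Myelin is rich in cholesterol, and cells of this lineage make it themselves: acetyl-CoA is turned into mevalonate, mevalonate into squalene, and squalene through lanosterol into cholesterol. The transcription factor SREBP2, encoded by Srebf2, turns on the genes of this pathway when sterols in the cell are low.

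The untreated libraries held 24 and 25.5 M counts and the DMSO libraries 23.6 to 33.2 M. Levels are given as CPM, the count of a gene scaled to a common library total. OPC transcripts were present in all 6 libraries, Olig1 at 1760 to 2430 CPM, Olig2 at 789 to 1200 CPM and Pdgfra at 347 to 1170 CPM. Transcripts used as markers of other cells were present too, with the astrocyte markers Aldh1l1 at 312 to 694 CPM and Gfap at 9.69 to 77.4 CPM. Bulk RNA does not show which cells these transcripts came from. The microglial gene C1qa and the endothelial gene Cdh5 were at 0 in all 6. Some other markers of these cell types were detected in all 6, with endothelial Flt1 at 3.25 to 18.9 CPM and microglial P2ry12 at 0.208 to 0.628 CPM. The DMSO libraries differed among themselves: Mbp, a myelin protein gene, stood at 6.43 and 8.55 CPM in letters A and B and at 217 and 350 CPM in letters C and D, against 179 and 345 CPM in untreated C and D. Mitochondrial transcripts took 2.63% and 2.73% of counts in the untreated libraries and 2.74%, 4.5%, 3.54% and 3.55% in DMSO letters A to D. The series holds untreated adult libraries only for letters C and D. Adult letters A and B were also known from an earlier analysis to differ from these in Gfap and Mbp. For both reasons the contrast was also made in letters C and D alone.

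Few genes passed the test between the 4 DMSO and the 2 untreated libraries. With edgeR's quasi-likelihood test over all 20259 genes kept, 62 genes were called at a Benjamini-Hochberg adjusted p below 0.05, or 0.306% of those tested. Of these, 53 were lower with DMSO (0.262%) and 9 were higher (0.0444%). In all 62 the groups did not overlap. Over all genes tested, 10.8% had every DMSO library below both untreated ones and 10.5% had every DMSO library above. At an unadjusted p below 0.05 there were 2736 genes. The count rests on few libraries: without untreated letter C it was 5, without untreated letter D it was 3, and without DMSO letter C it was 12. Without DMSO letters A, B and D it was 82, 212 and 56. The test fitted to the 6 libraries alone called 0 genes (1805 at an unadjusted p below 0.05), while DESeq2 on all libraries called 285.

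**Figure D1:**
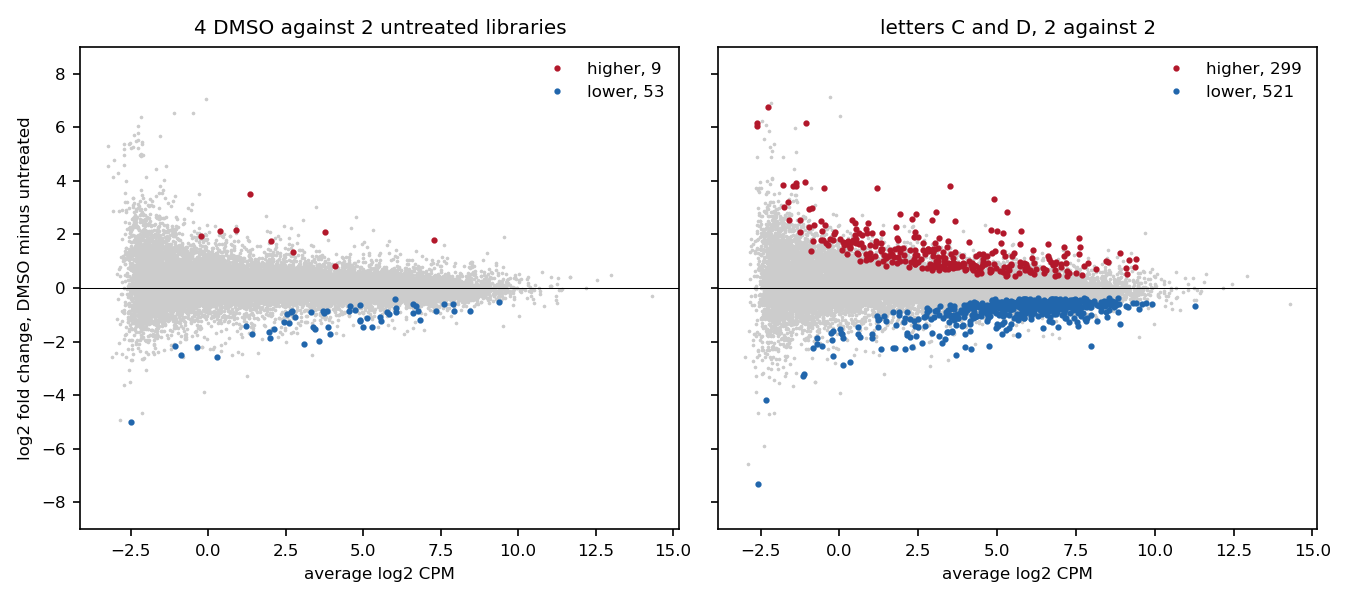
Fold change against average level for every gene tested in 4 DMSO against 2 untreated adult libraries (left) and in letters C and D alone (right). The x axis is the average log2 CPM of the fit, the y axis the log2 fold change of DMSO minus untreated, and coloured points are genes called by edgeR's quasi-likelihood test, 62 on the left and 820 on the right.

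Sez6l, Kcnmb4, Gsg1l, Gdpd2, Fmo1, Sned1 and Accs rose with DMSO. The naming rule took every called gene with a symbol whose groups did not overlap, up to 15 rises and 20 falls, without predicted, mitochondrial and ribosomal genes, and it gave these 7 rises and 20 falls. Sez6l, a transmembrane protein of the brain, stood at 65.6 and 52.4 CPM in untreated C and D and at 202, 273, 213 and 136 CPM in DMSO A, B, C and D. Its log2 fold change was 1.80 ± 0.37 (SE, adjusted p = 0.0231, edgeR's quasi-likelihood test). Kcnmb4, an accessory subunit of the BK potassium channel, stood at 2.9 and 2.13 CPM untreated and at 6.56, 6.93, 6.98 and 5.53 CPM with DMSO. The 4 DMSO values lay close together, and the log2 fold change of 1.35 ± 0.21 had the smallest adjusted p of the 7 (0.00236, edgeR). Gsg1l, an auxiliary subunit of AMPA glutamate receptors, was near the limit of detection without DMSO, at 0.314 and 0.375 CPM, and stood at 2.96, 3.58, 6.44 and 3.13 CPM with it. Its log2 fold change was 3.51 ± 0.70, the largest of the 7.

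Gdpd2 encodes a membrane-bound phosphodiesterase of the glycerophosphodiester family. Its level was 7.02 and 4.92 CPM in the untreated libraries and 16.5, 18.2, 44.4 and 25.1 CPM in DMSO A to D, so that letter C was the highest. Fmo1, a flavin-containing monooxygenase, rose from 0.549 and 0.5 CPM to 2.41, 1.39, 3.69 and 2.17 CPM, again with the highest value in letter C. Sned1, a secreted matrix protein, rose by 1.74 ± 0.36 and Accs by 0.83 ± 0.18 on the log2 scale.

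**Figure D2:**
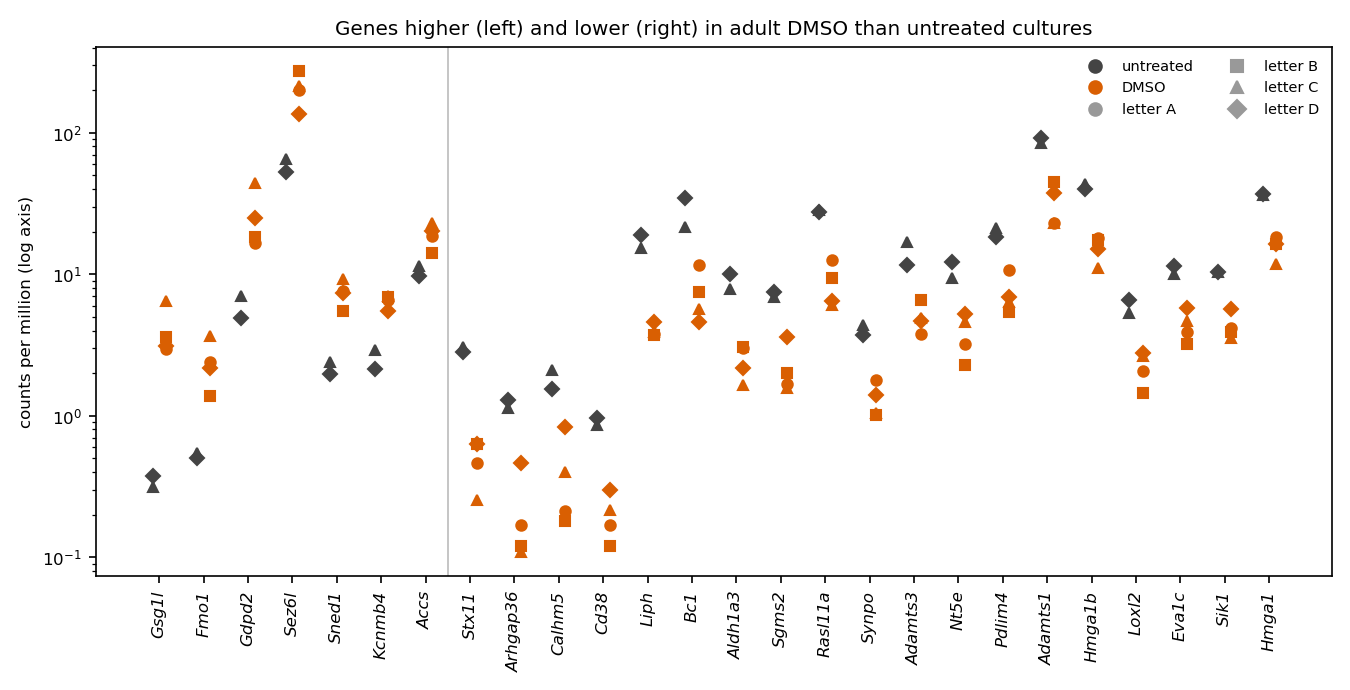
CPM (log axis) of the 7 named rises and 19 of the 20 named falls in each of the 6 adult libraries; grey points are untreated, orange points DMSO, and the marker gives the letter. In every gene shown all 4 orange points lie on one side of both grey points, which the naming rule required. AC122119.2 is left out because 2 of its DMSO values are 0.

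Liph, Aldh1a3, Nt5e, Cd38 and Sgms2, which encode enzymes, were among the transcripts that fell. Liph, a lipase that makes lysophosphatidic acid, stood at 15.4 and 18.8 CPM in untreated C and D and at 3.81, 3.73, 3.94 and 4.63 CPM in DMSO A to D. The 4 DMSO values hardly differed, and the log2 fold change was -2.10 ± 0.31 (adjusted p = 0.00122, edgeR). Aldh1a3, which makes retinoic acid from retinaldehyde, stood at 7.88 and 10 CPM untreated and at 3.01, 3.04, 1.66 and 2.17 CPM with DMSO. Its log2 fold change was -1.87 ± 0.30 (adjusted p = 0.00333). Nt5e (CD73), the surface enzyme that makes adenosine from AMP, went from 9.34 and 12.2 CPM to 3.22, 2.29, 4.59 and 5.23 CPM. Cd38, an enzyme that consumes NAD, fell by 2.18 on the log2 scale, but from less than 1 CPM in the untreated libraries (0.863 and 0.959) to 0.12 to 0.3 CPM. Sgms2, a sphingomyelin synthase, fell by 1.72, and its DMSO letter D, at 3.6 CPM, was the nearest to the untreated values of 6.94 and 7.5 CPM.

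Bc1 is a short non-coding RNA of rodent brain that represses translation. It stood at 21.7 and 34.6 CPM untreated and at 11.6, 7.47, 5.72 and 4.57 CPM with DMSO, and its log2 fold change was -1.96 ± 0.33 (adjusted p = 0.00515, edgeR). DMSO letters A and B held the 2 highest of the DMSO values. Hmga1, a chromatin protein that bends DNA, went from 36.2 and 36.8 CPM to 18.2, 16.4, 11.9 and 16.4 CPM, a log2 fold change of -1.23 ± 0.25. Its close copy Hmga1b fell by 1.45; the authors' counting may have divided reads between the pair, so the separate values are uncertain.

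Secreted proteins were among the falls as well. Adamts1, a secreted protease of the matrix, stood at 85.2 and 91.2 CPM untreated and at 23, 45.1, 23 and 37.5 CPM with DMSO, with a log2 fold change of -1.46 ± 0.31 (adjusted p = 0.0263, edgeR). Adamts3, which trims procollagens, fell by 1.52, and Loxl2, which cross-links collagen, by 1.43 on the log2 scale. The extracellular matrix and adhesion list had 27 members tested, of which 2 were called, both lower (0.262% of all genes were), and its median log2 fold change was -0.40 against 0.032 for all genes tested. Both called members are fibrous matrix genes: Col5a1 went from 89.8 and 75.9 CPM to 47.6, 37.7, 47.2 and 49.1 CPM (log2 fold change -0.89 ± 0.13), and Fn1 (fibronectin) from 103 and 74 CPM to 48.1, 51.9, 36 and 46.9 CPM (-0.97 ± 0.19). The spread within DMSO was small in both beside the gap to the untreated libraries. Synpo (-1.65) and Pdlim4 (-1.46), which bind actin, and Rasl11a (-1.71), a Ras-like GTPase, also fell.

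The remaining named falls were mostly of low level. Stx11, a SNARE protein, stood at 3.06 and 2.83 CPM untreated and at 0.253 to 0.633 CPM with DMSO (log2 fold change -2.56 ± 0.47). Arhgap36, a protein of the RhoGAP family, fell by 2.48, Calhm5 by 2.18, Eva1c by 1.31 and Sik1, a salt-inducible kinase, by 1.28 on the log2 scale. The processed pseudogene AC122119.2 stood at 0.824 and 0.542 CPM untreated and at 0 to 0.0362 CPM with DMSO, too few reads for a fold. The gene with the smallest adjusted p of all was outside the naming rule's 20 largest falls and is named after its values were seen. It is Uaca, a regulator of apoptosis, with 82.3 and 78.2 CPM untreated and 35.3, 33.3, 29.7 and 41.9 CPM with DMSO (log2 fold change -1.21 ± 0.15, adjusted p = 0.000152, edgeR).

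The 27 named genes kept their direction in every fit that held them (1 was filtered out at 1 CPM in 2 libraries), but most calls needed all the untreated libraries. Without untreated letter C, 1 of 7 rises and 3 of 20 falls were still called, without untreated letter D 0 and 0, and without DMSO letter C 1 and 4. In the fit to the 14 adult libraries 2 and 2 were called. Kcnmb4, Liph, Bc1, Aldh1a3 and Hmga1b kept their call whichever 1 DMSO library was left out. Kcnmb4 ranged from 1.15 to 1.58 on the log2 scale in the 6 fits that left out 1 library. Liph ranged there from -2.26 to -1.95, Bc1 from -2.27 to -1.58, Aldh1a3 from -2.05 to -1.68 and Hmga1b from -1.54 to -1.31. Several named genes overlap another tested gene on the other strand. Among them are Gdpd2 (Gm14866), Sez6l (Gm6588), Sned1 (Mterf4), Kcnmb4 (Kcnmb4os2), Hmga1 (Gm49774), Uaca (Gm9869) and Col5a1 (2810430I11Rik). The strand setting of the counting is not given in the sources used here, so a change cannot be assigned to 1 gene of such a pair. Some of the genes described above lie, in GRCm38, at chr16:21953817-21995663 (Liph, minus strand), chr9:60794542-60880370 (Uaca, plus), chr10:116417861-116473878 (Kcnmb4, minus), chr5:112419151-112577185 (Sez6l, minus) and chr7:144914470-144914637 (Bc1, plus).

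In letters C and D alone, the letters present in both groups, more genes passed the test. Of 19991 genes tested, 820 were called (4.1%), 299 higher (1.5%) and 521 lower (2.61%), and 4324 had an unadjusted p below 0.05. The 4 libraries are also part of the test with all letters, so the results of both are not independent. Without DMSO letter C the count was 3, without DMSO letter D 104, and without untreated C and D 16 and 21.

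For several of the largest rises in letters C and D, DMSO letters A and B stood elsewhere. Aqp4, the water channel of astrocyte end-feet, stood at 27.9 and 30.5 CPM in untreated C and D and at 136 and 130 CPM in DMSO C and D. Its log2 fold change there was 2.15 ± 0.49 (adjusted p = 0.0207, edgeR), while DMSO A stood at 15 CPM, below both untreated libraries, and DMSO B at 82.2 CPM. Draxin, a secreted axon guidance protein, stood at 10.4 and 3.71 CPM untreated and at 104 and 41.8 CPM in DMSO C and D, a log2 fold change of 3.33 ± 0.75. DMSO A and B, at 21 and 15.3 CPM, were above the untreated libraries but well below letter C. Txnip, a thioredoxin-binding protein whose transcript follows glucose supply, stood at 1.73 and 2.79 CPM untreated and 20 and 13 CPM in DMSO C and D, and at 15.7 and 4.79 CPM in A and B. Als2cl rose from 2.24 and 1.58 to 16.6 and 9.97 CPM, with the smallest adjusted p of the named rises (0.000937), and was called without any 1 of the 4 libraries. The other named rises were Cyp4f15, Id4 (an inhibitor of bHLH factors), Celsr1, Agt (angiotensinogen), Nrbp2, Ndrg2, Adamts12 and, once more, Gdpd2, with log2 fold changes of 1.88 to 2.54.

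Among the largest falls in letters C and D were a kinase scaffold and several receptors. Akap12, a scaffold for protein kinase A, stood at 440 CPM in both untreated libraries and at 68.2 and 134 CPM in DMSO C and D, a log2 fold change of -2.16 ± 0.38 (adjusted p = 0.00585, edgeR). DMSO A and B were at 220 and 286 CPM, between the 2 sets. Cd93, a C-type lectin-like surface receptor, stood at 37 and 41.5 CPM untreated, 7.74 and 10.3 CPM in DMSO C and D, and 1.74 and 38.7 CPM in A and B. Letter B was thus within the untreated range and letter A below every other library. Prokr1, a prokineticin receptor, had a similar split, with 1.86 CPM in DMSO A and 6.9 CPM in DMSO B. Its DMSO B value was just below the untreated values of 6.94 and 7 CPM. Tnfrsf12a, the receptor of TWEAK, went from 33.5 and 39.9 CPM to 5.35 and 10.4 CPM, and Epha2, an ephrin receptor, from 15.4 and 14.3 CPM to 2.57 and 4.7 CPM. Trim66, Shisa3 and Olfml2b also fell, by 2.21, 1.92 and 1.79, beside Bc1, Aldh1a3, Rasl11a and Liph. All 24 named genes kept their sign in every alternative fitted; without DMSO letter C, 1 rise and 1 fall were still called.

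Genes of cholesterol synthesis were lower with DMSO as a group. All 27 members of the list were tested. With all letters, 3 were called, all lower (0.262% of all genes were), and 26 of 27 had a negative log2 fold change with a median of -0.71. In letters C and D, 20 of 27 were called, all lower, with a median of -0.98, against 2.61% of all genes called lower. All 4 DMSO libraries lay below both untreated libraries in 22 of the 27, against 10.8% of all genes. The summed level of the list was 4460 and 4380 CPM in untreated C and D and 2680, 3910, 2450 and 2650 CPM in DMSO A, B, C and D, so that letter B was the nearest to the untreated libraries. The number of called genes moved with single libraries: with all letters it was 16 without DMSO letter B, 2 without DMSO A, C or D and 0 without either untreated library, and in letters C and D it was 0 without DMSO C, 9 without DMSO D, and 4 and 5 without untreated C and D.

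**Figure D3:**
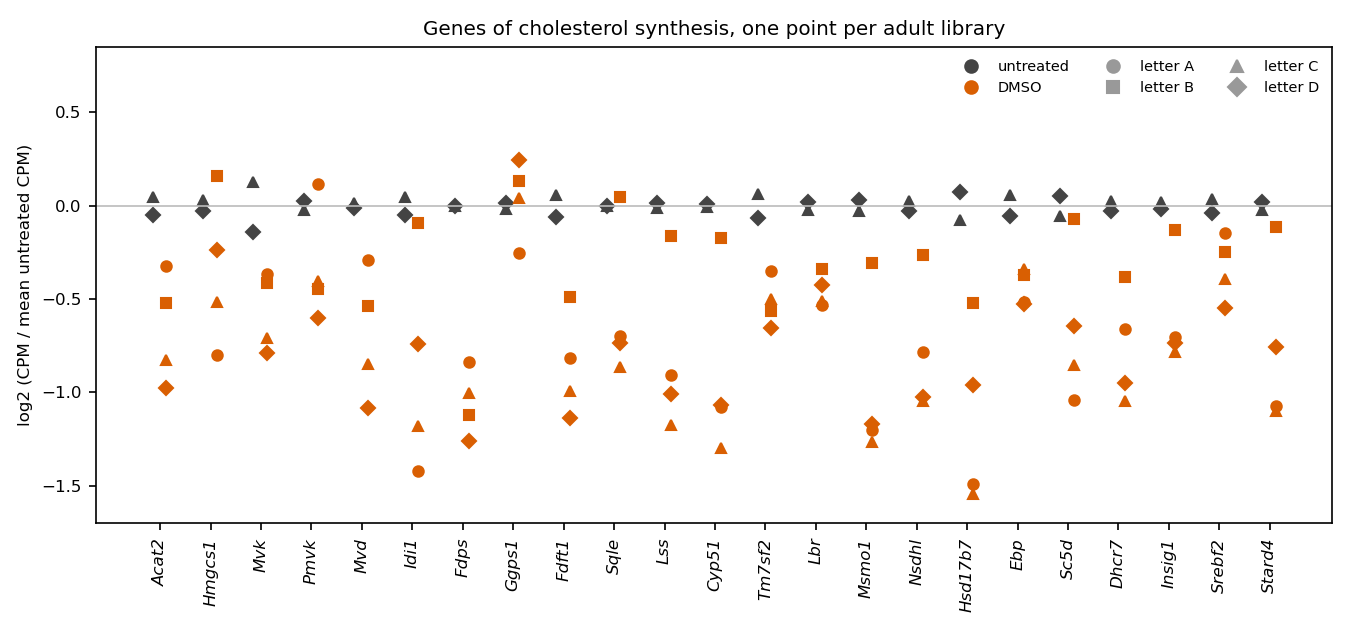
Level of 23 genes of cholesterol synthesis and its control in each adult library as log2 of its CPM over the mean of both untreated libraries, ordered from the first enzyme to the last and then control. DMSO libraries of letters A, C and D (orange circles, triangles and diamonds) lie below 0 in nearly every gene and letter B (squares) lies closer to 0 in many of them.

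In the early steps, Hmgcs1, which makes HMG-CoA, stood at 684 and 656 CPM untreated and at 385, 749, 468 and 568 CPM in DMSO A to D. Its groups overlapped, letter B being the highest of all, and it was not called in either test (adjusted p = 0.584 and 0.283). Of the isoprenoid enzymes, Idi1 stood at 45.9 and 42.9 CPM untreated and 16.6, 41.6, 19.6 and 26.6 CPM with DMSO, and Fdps, which makes farnesyl diphosphate, was called with all letters (7.26 and 7.25 CPM against 4.06, 3.34, 3.62 and 3.03 CPM). Fdps has processed pseudogenes that may take some of its reads. Ggps1, which turns farnesyl into geranylgeranyl diphosphate and so leaves the sterol branch, was the single member with a positive log2 fold change (0.04 with all letters, adjusted p = 0.941).

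In the sterol branch, Fdft1 (squalene synthase) fell by 0.85 ± 0.19 on the log2 scale with all letters (adjusted p = 0.0493, edgeR), from 185 and 171 CPM to 101, 127, 89.6 and 80.8 CPM. Cyp51, which demethylates lanosterol, stood at 352 and 356 CPM untreated and at 168, 314, 144 and 169 CPM with DMSO. Its untreated values nearly coincide and letter B is the nearest to them; the log2 fold change in letters C and D was -1.22 ± 0.17 (adjusted p = 0.00126). Msmo1, the methylsterol oxidase, stood at 212 and 221 CPM untreated and at 94.2, 175, 90.2 and 96.3 CPM with DMSO (-1.26 ± 0.19 in letters C and D). Lss, which closes the rings of lanosterol, stood at 145 and 148 CPM and at 78.2, 131, 65 and 72.8 CPM (-1.13 ± 0.18). In each of these genes letters A, C and D lay close together at a lower level. Sqle differed in letter B, which at 365 CPM exceeded both untreated libraries (353 CPM each) while A, C and D stood at 218, 194 and 212 CPM.

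Genes of control were also lower in letters C and D. Insig1, which holds SREBP2 back in the endoplasmic reticulum, fell by 0.80 on the log2 scale, and Srebf2 itself by 0.51. The 13 tested genes of sterol efflux and of the sterol sensor LXR had 0 calls in either test (2 and 4 at an unadjusted p below 0.05), with 12 of 13 log2 fold changes positive and a median of 0.20 in letters C and D. The fatty acid synthesis list, with 22 tested, had 2 called lower and 1 higher in letters C and D, where 2.61% and 1.5% of all genes were, and a median of -0.20.

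Promoter sequences are shown for the 3 genes of the pathway with the smallest adjusted p in letters C and D for which RefSeq gave one, and for Hmgcs1, the only list member with a match to the sterol regulatory element searched. RefSeq windows on GRCm38.p6 were found for 19 of the 27 genes, 22 windows of 300 bases from 250 before to 50 after a gene's start. The 250 bases before the start are printed 5′ to 3′ on the gene's strand, with capitals for CCAAT on either strand and for the sterol regulatory element.
Cyp51 (chr5:4104698-4104947, minus strand): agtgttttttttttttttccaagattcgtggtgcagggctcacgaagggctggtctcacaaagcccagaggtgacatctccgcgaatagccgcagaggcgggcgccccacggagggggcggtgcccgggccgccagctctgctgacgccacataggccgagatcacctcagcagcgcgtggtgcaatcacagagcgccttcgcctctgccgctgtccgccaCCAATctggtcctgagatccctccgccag
Msmo1 (chr8:64733579-64733828, minus strand): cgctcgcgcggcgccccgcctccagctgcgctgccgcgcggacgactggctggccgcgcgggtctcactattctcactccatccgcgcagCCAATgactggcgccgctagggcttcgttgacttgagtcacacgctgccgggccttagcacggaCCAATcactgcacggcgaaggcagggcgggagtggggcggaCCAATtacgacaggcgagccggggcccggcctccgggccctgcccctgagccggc
Lss (chr10:76531355-76531604, plus strand): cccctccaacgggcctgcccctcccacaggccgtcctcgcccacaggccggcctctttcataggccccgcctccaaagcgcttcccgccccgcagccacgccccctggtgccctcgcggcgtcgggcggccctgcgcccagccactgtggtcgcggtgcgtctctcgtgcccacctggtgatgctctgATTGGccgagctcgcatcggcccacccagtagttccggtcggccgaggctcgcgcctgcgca
Hmgcs1 (chr13:119690101-119690350, plus strand): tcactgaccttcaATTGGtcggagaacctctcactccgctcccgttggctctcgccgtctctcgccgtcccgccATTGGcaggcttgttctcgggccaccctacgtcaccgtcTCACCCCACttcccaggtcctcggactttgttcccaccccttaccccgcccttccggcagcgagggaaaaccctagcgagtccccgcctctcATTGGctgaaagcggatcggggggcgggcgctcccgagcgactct
The letters CCAAT, the core of the box bound by NF-Y, occurred on either strand in 18 of the 19 genes (94.7%) and in 18 of the 22 windows (81.8%), against 41.1% of 27025 genes and 37.4% of 32851 windows in the whole table. The sterol regulatory element was searched as TCACNCCAC on both strands, a motif that shares no match with CCAAT in the sequences shown, and was found in 1 of 22 windows (4.55%) against 1.24% of all windows. The match, TCACCCCAC in Hmgcs1, starts at position -137 from the gene's start. Hmgcs1 was itself not called in either adult test. No part of these motifs in the differences was tested.

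Transcripts of DNA replication were lower with DMSO in direction, with few calls. Of 43 S phase genes tested, 0 were called with all letters (23 at an unadjusted p below 0.05, and 0 with DESeq2) and 3 in letters C and D, all lower, but all 43 had a negative log2 fold change in both tests, with medians of -0.59 and -0.76. All 4 DMSO libraries lay below both untreated ones in 33 of the 43, against 10.8% of all genes, and 2.61% of all genes were called lower in letters C and D. The summed level of the list was 4030 and 3860 CPM untreated and 2340, 3530, 2160 and 2460 CPM in DMSO A to D, again with letter B nearest to the untreated libraries. The called members were Mcm3, a subunit of the replicative helicase (72.3 and 82.7 CPM in DMSO C and D, log2 fold change -1.27), Ccne1 (cyclin E1, log2 fold change -1.05 ± 0.27) and Gins2 (-1.04 ± 0.29). These calls were lost without any 1 of the 4 libraries, and DESeq2 called 15 members in letters C and D. Genes of G2 and M phase moved less, with 0 of 50 called by edgeR or DESeq2 in either test (4 and 6 at an unadjusted p below 0.05) and medians of -0.30 and -0.38. Mki67, a marker of cycling cells, stood at 873 and 619 CPM untreated and at 381, 1140, 569 and 880 CPM with DMSO, so that its groups overlapped (adjusted p = 0.997).

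Markers of astrocytes, another glial cell type, were in part higher with DMSO. Of 20 markers tested, 0 were called with all letters (6 at an unadjusted p below 0.05, and 2 with DESeq2) and 6 in letters C and D, all higher, with medians of 0.50 and 0.69; 1.5% of all genes were called higher in letters C and D. Their summed level was 5720 and 5280 CPM untreated and 6410, 6980, 8950 and 7770 CPM in DMSO A to D. Besides Aqp4 and Agt, the called genes were Slc1a2, the glial glutamate transporter (177 and 149 CPM untreated, 443 and 367 CPM in DMSO C and D), Atp1b2 (282 and 254 CPM against 647 and 462 CPM), Fgfr3 and Cldn10. For Slc1a2 the DMSO A value of 176 CPM lay within the untreated range. Gfap, the filament protein of astrocytes, stood at 38.8 and 54.9 CPM untreated, 77.4 and 69.5 CPM in DMSO C and D, and only 9.69 and 12 CPM in DMSO A and B, and was not called (adjusted p = 0.953 with all letters, 0.687 in letters C and D). In bulk RNA a change in the number of cells of a type and a change in RNA per cell cannot be told apart. The astrocyte calls in letters C and D were lost without either untreated library or without DMSO letter C, and 1 was left without DMSO letter D.

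Stage markers of the lineage itself did not pass the test. Of 22 OPC markers and 24 markers of myelin and mature oligodendrocytes, 0 were called in either comparison by edgeR or DESeq2 (2 and 2 OPC markers and 1 and 2 myelin markers had an unadjusted p below 0.05). Pdgfra, the receptor for PDGF-AA, stood at 760 and 810 CPM untreated and at 1170, 347, 833 and 864 CPM with DMSO. Gpr17, a receptor of committed progenitors, stood at 123 and 117 CPM untreated and at 811, 44.1, 500 and 517 CPM with DMSO. DMSO A, C and D were higher and letter B was lower, and the log2 fold change of 1.92 was not called (adjusted p = 0.582). The genes of the enzymes that the inhibitors of the series act on also did not pass: Kat5 (41 and 43.2 CPM untreated, 38.4 to 52.4 CPM with DMSO), Ep300, Kmt5b and Kmt5c had adjusted p-values of 0.463 to 0.933.

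Signalling and metabolic lists had a few members called, nearly all lower and in letters C and D, where 2.61% of all genes were called lower. Of 18 genes that report ERK activity, 2 were called, both lower: the feedback inhibitors Spry4 (288 and 359 CPM untreated, 107 and 141 CPM in DMSO C and D) and Spry1 (159 and 154 CPM against 70.9 and 91.3 CPM). For Spry1 the DMSO B value of 175 CPM exceeded both untreated libraries. Of 25 immediate early genes, 1 was called lower, a share near that of all genes; it was Jun (154 and 156 CPM against 82.4 and 88.4 CPM). The list's median was -0.67. Of 24 genes of the ATF4 and amino acid response, 5 were called, all lower: Atf4 itself (181 and 180 CPM against 118 and 110 CPM), the serine and one-carbon enzymes Mthfd2 and Shmt2, the asparagine synthetase Asns, and Stc2. Mthfd2 moved the most, from 52.4 and 51.1 CPM to 17.4 and 20.3 CPM, a log2 fold change of -1.50 ± 0.35 (adjusted p = 0.0217, edgeR). Of 21 glycolysis genes, Pfkp, Hk2, Ldha and Pkm were called lower in letters C and D, and Pfkp, a phosphofructokinase, with all letters as well (46 and 40.9 CPM against 21.6, 23, 12.7 and 19.1 CPM). Of 14 heat shock genes, Hsph1, Hspa8 and Hspd1 were called lower, by 0.47 to 0.64 on the log2 scale. Calls of single genes in letters C and D mostly needed all 4 libraries, as the counts without 1 library given above for this comparison show.

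**Figure D4:**
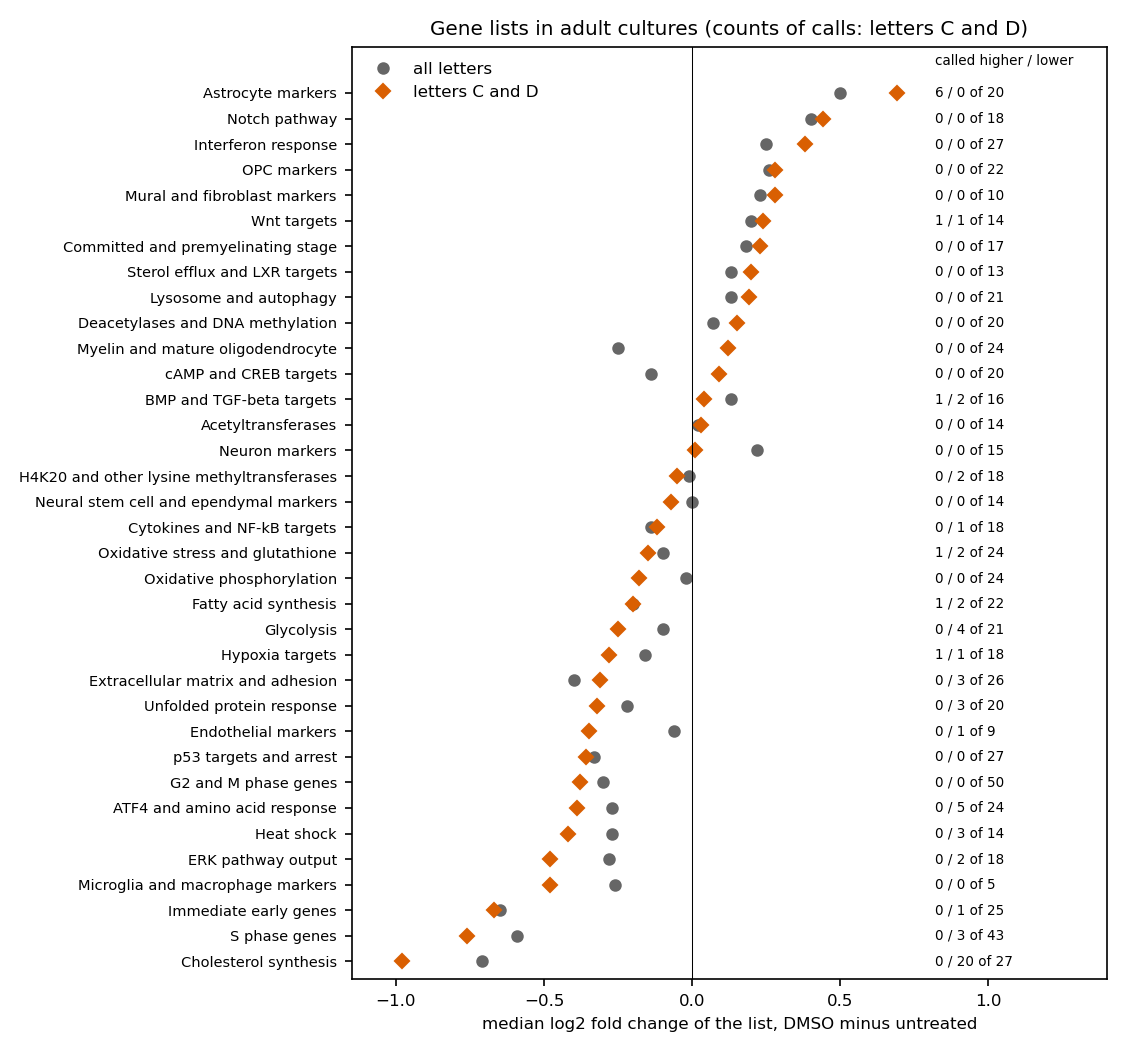
Median log2 fold change, DMSO minus untreated, of each of the 35 gene lists with all letters (grey circles) and in letters C and D (orange diamonds). Numbers at the right give members called higher and lower of those tested in letters C and D; cholesterol synthesis has the lowest median, -0.98, and astrocyte markers the highest, 0.69.

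The levels of these genes in the adult cultures given an inhibitor are set beside them here. The same 2 untreated libraries are the reference for all 3 treatments, so the comparisons are not independent. Liph, at 15.4 and 18.8 CPM untreated, stood at 3.39 to 11.8 CPM with KATi and 2.34 to 6.5 CPM with SUV420i. Uaca stood at 39.3 to 55.1 CPM and 29.8 to 47.8 CPM with KATi and SUV420i. Gdpd2, at 7.02 and 4.92 CPM untreated, stood at 11 to 30.1 CPM with KATi and 18.8 to 44.6 CPM with SUV420i. For each of these 3 genes the ranges of DMSO and of both inhibitors lay on one side of the untreated values. The same held for all 9 genes called higher with all letters and for 52 of the 53 called lower. These genes were called against the same 2 untreated libraries, and the share over all genes was not counted. The counts therefore have no share to be read against and do not speak for the called genes. The summed level of the cholesterol list was 2530 to 3460 CPM with KATi and 2570 to 4150 CPM with SUV420i, against 4460 and 4380 CPM untreated.

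**Figure D5:**
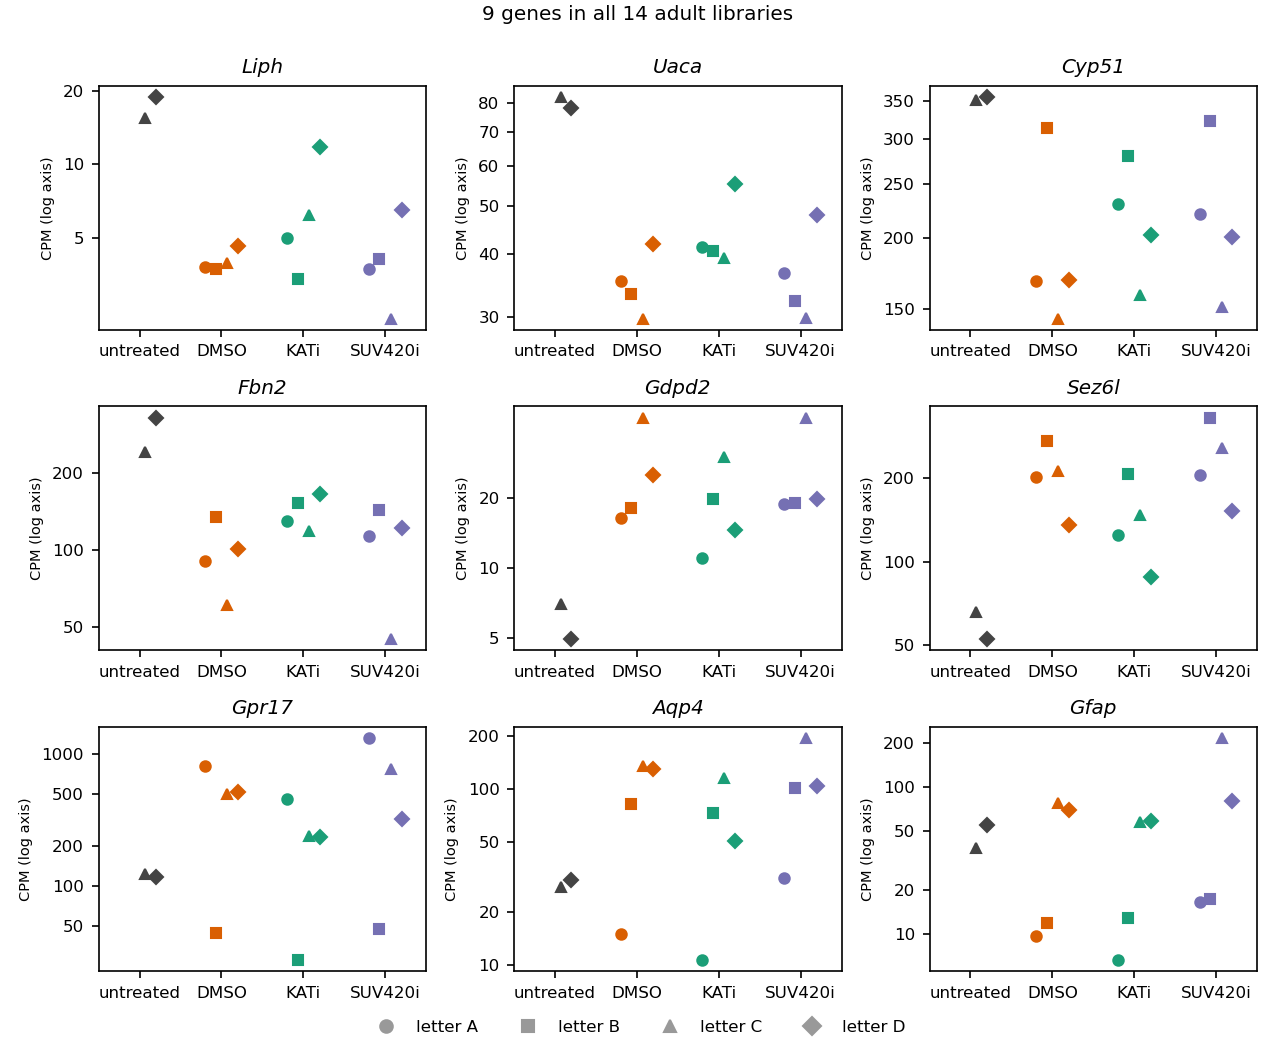
CPM (log axis) of 9 genes in the 14 adult libraries by treatment, with the marker for the letter. For Liph, Uaca, Gdpd2 and Sez6l all 12 treated libraries lie on one side of both untreated libraries; Gpr17, Aqp4 and Gfap, which were not called with all letters, differ more by letter, letter B being the lowest for Gpr17 and letters A and B for Gfap.

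In neonatal cultures the same contrast, 5 DMSO against 3 untreated libraries, ran the other way for several of these groups. The difference between ages was tested as an interaction in the same fit and called 2204 of 20259 genes (10.9%), 1013 more positive (5%) and 1191 more negative (5.88%) in the adult cultures. All 27 cholesterol genes had a more negative response in the adult cultures, and 24 of them were called; 23 of 27 were called higher with DMSO in neonatal cultures, where 6.36% of all genes were. Fdps stood at 3.92 to 4.63 CPM in untreated and 7.33 to 10.1 CPM in DMSO neonatal libraries, and its response was lower in adults by a log2 fold change of -2.16 (adjusted p = 4.67e-05, edgeR). All 43 S phase genes had a more negative response in the adult cultures, with 38 called, and all 20 astrocyte markers a more positive one, with 12 called; 14 of the 20 were called lower with DMSO in neonatal cultures (6.37% of all genes were). The single genes with the largest differences were C4b (5.02), Gfap (4.6), S1pr3 (4.35) and Agt (3.76), more positive in adults, and Arc (-4.43), Egr1 (-4.23), Col19a1 (-3.52) and Fbn2 (-3.13), more negative. Of these, Agt was called in adult letters C and D; the other adult responses were not called, and the neonatal ones were. Egr1, an immediate early gene, stood at 123 and 155 CPM in untreated adult libraries and 39, 48.8, 37.3 and 45.2 CPM in adult DMSO libraries, against 13.6 to 27.3 CPM and 36.2 to 360 CPM in untreated and DMSO neonatal libraries. Bc1 was not called as different between ages: it fell in neonatal cultures too, by 2.27 on the log2 scale (interaction 0.31, adjusted p = 0.716). Leaving out untreated adult letter C or D brought the 2204 genes to 490 or 122; there were 1127 without adult DMSO letter C, 796 without 1 neonatal untreated library (replicate 2), and 3699 without adult letters A and B.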

How the data were processed

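RNA-seq libraries were paired-end reads of total RNA from cultured cells. The deposited table holds counts per Ensembl identifier, made by the authors with Subread and featureCounts on mm10, with CASAVA 1.8.2 and DESeq2 also named, per the submitters' processing notes; for annotation release and strand setting: not given in the sources used here. Of 56980 identifiers, 52073 matched a symbol in GENCODE vM21 (GRCm38); those without one hold 2.37% of counts and were kept.

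Groups came from the labels. Counts were tested with edgeR 4.0.16 (R 4.3.3) by the quasi-likelihood F test on all 32 libraries in 8 groups, after filterByExpr (minimum count 10) and TMM scaling, with Benjamini-Hochberg adjustment over all genes and a threshold of 0.05. Letters C and D were tested in a second fit on 26 libraries, without adult letters A and B. The difference from neonatal cultures was an interaction contrast. CPM used library totals. DESeq2 1.42.0, other scalings and filters, smaller fits, a letter block and each library left out were alternatives. Leaving out adult letters A or B was added after seeing the data. Scripts were tested on simulated counts. No 2 libraries of a group agreed within sampling noise (chi-square per degree of freedom at least 13.1).

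Named genes were, with predicted, mitochondrial and ribosomal protein genes left out, the called genes without overlap (up to 15 rises and 20 falls), the 12 largest rises and falls in letters C and D and the 4 largest differences each way between ages (both at an average log2 CPM of at least 2), up to 4 members of lowest p from each list described, and a fixed set of marker and target genes. Some of these genes are not reported here. Any other gene is named after its values were seen. The libraries compared, the gene lists and the tests were chosen with earlier results of these data known. Promoter windows came from RefSeq (GRCm38.p6).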

Additional observations from a re-analysis of the deposited data

Results flagged for a closer look

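In 2 of the 57 named genes, 1 of the 4 DMSO libraries stood far from the other 3; chance alone sets apart about 1 in 20 groups in this way. Arhgap36 was at 0.467 CPM in DMSO letter D and at 0.109 to 0.169 CPM in the others. Adamts12 was at 3.26 CPM in DMSO letter A and at 25.8 to 28.1 CPM in the others.

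The DMSO response differed between adult and neonatal cultures in the interaction test of edgeR (adjusted p below 0.05) for the 8 genes named for the size of that difference and for 2 of the fixed marker and target genes, Mki67 and Hmgcs1, beside Gfap, which is in both. The adult response was more positive, on the log2 scale, for C4b by 5.02, Gfap by 4.6, S1pr3 by 4.35 and Agt by 3.76. It was more negative for Arc (-4.43), Egr1 (-4.23), Col19a1 (-3.52), Fbn2 (-3.13), Mki67 (-2.17) and Hmgcs1 (-0.94). S1pr3 stood at 2.63 and 2.38 CPM in untreated and 2.12 to 4.78 CPM in DMSO adult libraries, and at 7.65 to 43.2 CPM and 1.45 to 2.76 CPM in untreated and DMSO neonatal libraries.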

How the results depend on the processing

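The number of genes called with all letters, 62, was 20 in a fit to the 14 adult libraries, 0 in a fit to the 6 libraries compared, 285 with DESeq2, and 147 and 520 without adult letters A and B, 2 settings chosen after seeing the data. It ranged from 3 to 212 when 1 library was left out. In letters C and D, 820 became 516 without a filter on low counts, 1243 with a filter of 1 CPM in 2 libraries and 1812 with DESeq2, and 3 to 104 without 1 library. The interaction count of 2204 became 3699 without adult letters A and B and ranged from 122 to 2922 without 1 library. Where 1 untreated library was left, it was assumed to vary like the other groups. The cause of these changes was not tested.

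The letters pair untreated and DMSO libraries only for C and D, and the deviations of the same letter correlated by 0.01 and 0.15. With 2 untreated libraries, their deviations from the group mean mirror each other, so these values cannot decide the question. The letters are neither shown to pair these samples nor shown not to. Between treated adult groups the same letter correlated more, by 0.58, 0.64, 0.43 and 0.09 for DMSO with KATi and 0.52, 0.66, 0.49 and 0.41 for DMSO with SUV420i (letters A to D). A fit with the letter as a replicate block called 3927 genes with all letters (1749 higher and 2178 lower, 62 of them called without the block), 3038 in letters C and D and 6224 in the interaction. With the block, Gfap (0.6) and the myelin list's median (0.01) with all letters turned positive.

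The other reversals were of genes near 0 that were not called. With all letters, Pdgfra (0.00) became -0.02 without a filter, -0.06 without untreated C, -0.24, -0.01 and -0.03 without DMSO A, C and D, and -0.26 without adult letter A. Mki67 (-0.01) became 0.02 with the 1 CPM filter, 0.01 in the 6 libraries, 0.25 without untreated C, 0.21 and 0.11 without DMSO A and C, and 0.2 without letter A. Gfap became 0.08 without untreated D, 0.13 and 0.12 without DMSO A and B, and 0.11 and 0.12 without letters A and B. Olig2 became 0, 0.02 and 0.06 without untreated C, DMSO C and DMSO D. Over all fits without 1 library the ranges were -0.24 to 0.25 for Pdgfra, -0.33 to 0.25 for Mki67, -0.66 to 0.13 for Gfap and -0.15 to 0.06 for Olig2. In letters C and D, without untreated C, Mbp became -0.33, Mki67 0.18, Kat5 -0.02 and the myelin list's median -0.05. Cspg4 became -0.29 without untreated D and -0.43 without DMSO C. Without DMSO C, Mki67 became 0.19 and Kat5 -0.18, and without DMSO D, Mbp became -0.32. The ranges without 1 library there were -0.43 to 0.65 for Cspg4, -0.33 to 0.62 for Mbp, -0.44 to 0.19 for Mki67, -0.18 to 0.18 for Kat5 and -0.05 to 0.28 for the myelin median.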

Other observations

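Transcripts linked to sex differed between the adult libraries. Xist, transcribed from the inactive X chromosome, stood at 408 and 487 CPM in untreated C and D and at 44.3, 1020, 865 and 1010 CPM in DMSO A to D. Kdm5d, a gene of the Y chromosome, stood at 30.9 and 30.4 CPM untreated and at 52.5, 9.37, 39.8 and 48.8 CPM with DMSO. Letter A thus had the lowest Xist and the highest Kdm5d level, and letter B the reverse, while letters C and D were above the untreated libraries in both genes. Several genes in the results are on the X chromosome, Gdpd2, Nsdhl and Ebp among them. The part of these differences in the results was not tested.

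Interferon response genes had 0 of 27 calls in either adult comparison (2 and 6 at an unadjusted p below 0.05, edgeR), with 22 and 24 log2 fold changes positive and medians of 0.25 and 0.38. Notch pathway genes also had 0 of 18 calls (2 and 4 at an unadjusted p below 0.05), with medians of 0.40 and 0.44. Hes5, a Notch target, stood at 9.96 and 3.63 CPM untreated and at 55.8, 4.73, 48.1 and 23 CPM with DMSO, so that letter B lay within the untreated range. Genes of oxidative phosphorylation had 0 of 24 calls (0 and 2 at an unadjusted p below 0.05) and medians of -0.02 and -0.18.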
